A study of Mus musculus with 9 samples.

Results

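The genes described here belong to families that include the proteins that tether synaptic vesicles, make them ready, fuse them and recover the fusion machinery. Not all of them act at synaptic vesicles, as stated for some below. They were taken by symbol, as every row of the read count table named Syt, Stx, Stxbp, Vamp, Cplx, Rims, Unc13 or Sv2 with a digit or letter after it, plus Snap25, Syn1, Syn2, Syn3, Napa, Napb and Nsf. The rule found 70 of the 18956 symbols, and all 70 passed the filter on low counts. They were 16 synaptotagmins (Syt), 5 synaptotagmin-like genes (Sytl, which the letter rule also takes), 14 syntaxins (Stx), 7 syntaxin-binding genes (Stxbp), 7 Vamp genes, Snap25 with Napa, Napb and Nsf, 3 complexins (Cplx), 4 Rims, 4 Unc13, 3 Sv2 and 3 synapsins (Syn). Of the Vamp rows, Vamp7-ps is annotated as a processed pseudogene, so its reads may belong to Vamp7.

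RNA of BALB/c mouse brain was sequenced in 9 libraries, from tissue that the labels place in the anterior paraventricular nucleus of thalamus (aPVT), a midline nucleus made mostly of excitatory neurons. Of the 3 groups of 3 libraries, the first had 5 days of social defeat stress and received (2S,6S)-HNK, a hydroxynorketamine derived from ketamine and called SHNK here. The second had the same stress and received saline, and the third was not stressed and received saline. The sources used here give no age, sex or dose, nor the number of animals behind a library, so each p-value measures only the spread between these libraries, which may be technical.

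Release begins when a vesicle SNARE protein (a Vamp) coils with syntaxin and Snap25 on the plasma membrane and pulls the membranes together. Munc13 proteins (the Unc13 genes) guide that assembly, Rims scaffolds hold vesicles near calcium channels, and complexins hold the assembled complex until a calcium-bound synaptotagmin triggers fusion. Nsf, with its adaptors Napa and Napb, then takes the spent complex apart, while synapsins tether the reserve vesicles. Excitatory neurons of the thalamus use this machinery at their terminals, as other neurons do.

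Total counts were 32307869 to 51569143 per library, so counting error is small for all but the least abundant genes. All 7 thalamic and aPVT marker genes looked for were in the table, with summed levels of 3678 to 4030 CPM (reads per library scaled to a common total) in SHNK, 3470 to 4001 CPM in stressed saline and 3747 to 4278 CPM in non-stressed saline libraries. Of 12 markers of the habenula, a neighbouring region, 9 were in the table. Their summed level was 38.5 to 45.0 CPM in SHNK, 202 to 624 CPM in stressed saline and 64.8 to 113 CPM in non-stressed saline libraries, with stressed saline replicate 2 highest. The table lists no gene at 0, and the 3 markers outside it were not analysed here. Of the 9 measured, 8 were lower in SHNK than in stressed saline libraries and 7 were higher in stressed than in non-stressed saline libraries at an adjusted p under 0.05. In bulk tissue, fewer cells of a type and less RNA per cell cannot be told apart.

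Levels per length, in CPM per kilobase of annotated exon, were led by the core of the fusion complex. Snap25, the plasma membrane SNARE, had 447 ± 71.1 CPM per kilobase in SHNK, 311 ± 21.4 in stressed saline and 343 ± 12 in non-stressed saline libraries (SD, n = 3). Vamp2, the main vesicle SNARE of the forebrain, had 340 ± 13.5, 314 ± 12 and 342 ± 19.2 CPM per kilobase in the same groups and order. The levels of these SNAREs lay within an SD of each other in both saline groups, while in SHNK libraries Snap25 was the higher.

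Cplx1, a complexin, followed with 226 ± 14.5 CPM per kilobase in SHNK, 240 ± 37.3 in stressed saline and 215 ± 27.6 in non-stressed saline libraries. Next came Syt11, a synaptotagmin that does not bind calcium, with 193 ± 2.73, 173 ± 5.49 and 182 ± 3.21 CPM per kilobase in SHNK, stressed saline and non-stressed saline libraries. It was followed by Syn2, a synapsin, with 175 ± 9.47, 162 ± 15.6 and 177 ± 12.7 CPM per kilobase in the same 3 groups. In SHNK libraries Nsf (160 ± 5.46) and Napa (159 ± 8.28) did not differ beyond their spread.

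Other families peaked lower. Stx1a, the plasma membrane syntaxin of fast release, led the syntaxins with 73.7 ± 1.54 CPM per kilobase in SHNK, 72.5 ± 1.98 in stressed saline and 81.9 ± 7.03 in non-stressed saline libraries. Sv2a, a vesicle glycoprotein, led the Sv2 genes with 62.9 ± 6.70, 66.0 ± 4.14 and 72.2 ± 12 CPM per kilobase in the same groups. Lower still were Rims3 with 23.2 ± 3.69, 23.1 ± 2.31 and 27.5 ± 2.55, Unc13a with 2.71 ± 0.442, 3.22 ± 0.213 and 3.63 ± 0.0882, and Sytl2 with 1.80 ± 0.0977, 2.20 ± 0.415 and 1.68 ± 0.0728 CPM per kilobase. Unc13a led the Unc13 genes in both saline groups, while in SHNK libraries Unc13c was the higher, at 2.90 ± 0.131 CPM per kilobase. In stressed saline libraries Sytl1, at 3.23 ± 1.57 CPM per kilobase, had a higher mean than Sytl2. Cplx1 made up 96.8 ± 0.55% of the complexin level per length in SHNK, 96.1 ± 0.398% in stressed saline and 96.7 ± 0.589% in non-stressed saline libraries.

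**Figure D1:**
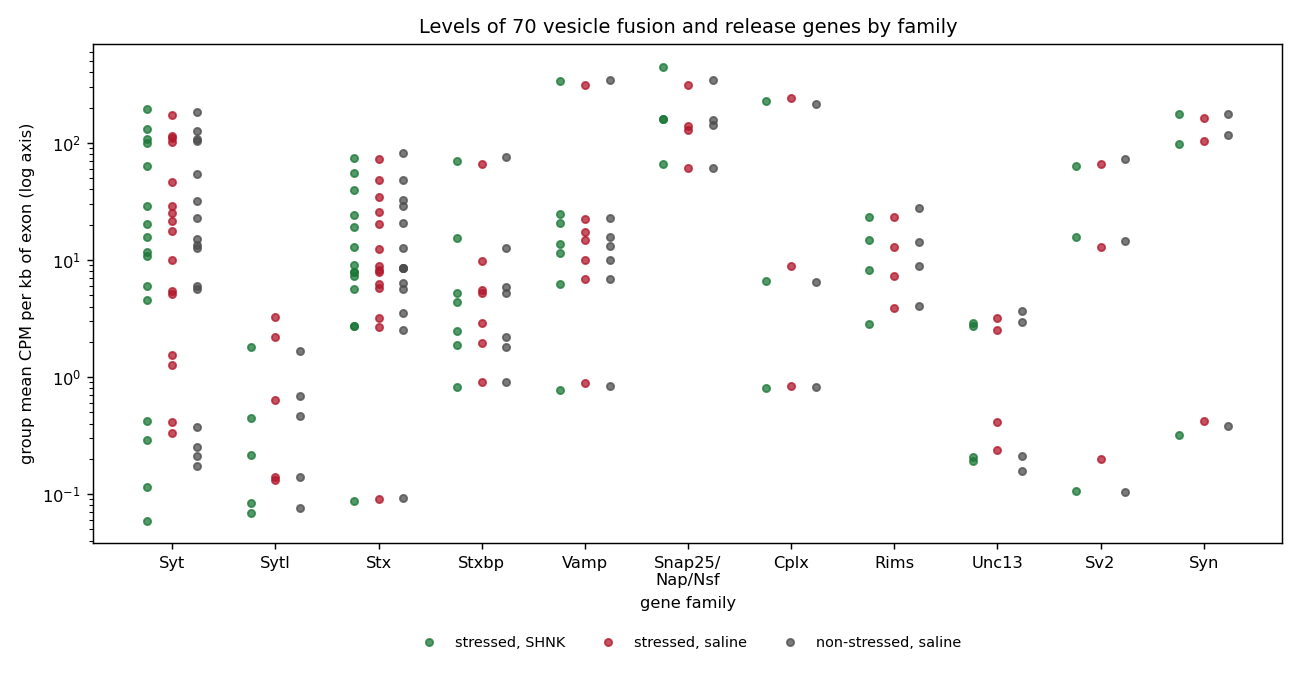
Level of each of the 70 genes by family, in CPM per kilobase of exon on a log axis, as group means of 3 libraries for SHNK, stressed saline and non-stressed saline. Snap25 and Vamp2 stand at the top, between 311 and 447 CPM per kilobase, and the 3 group means of most genes lie close together.

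The first comparison asked how SHNK libraries differed from stressed saline libraries. Of the 70 genes, 4 were higher and 6 were lower at an adjusted p under 0.05 by edgeR's quasi-likelihood test with Benjamini-Hochberg adjustment over 18194 genes. That is 14.3% of the genes, beside 6.41% of all genes tested (2.45% higher and 3.96% lower). At a mean of 100 CPM or more 12% were called, beside 11.5% of all genes of that abundance. Between 10 and 100 CPM it was 6.67% beside 7.3%, and under 10 CPM 33.3% (5 of 15 genes) beside 4.32%. The rises were in abundant parts of the fusion and recycling machinery, Snap25, Syt1 and Nsf, and in Stxbp6. The falls were in Syt15, Syt6, Sytl1, Syt9, Unc13d and Sv2c. The median log2 fold change was -0.07 over the 70 genes and -0.01 over all genes tested.

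Snap25 (chr2:136713453-136782428, GRCm38, plus strand) had 2566, 3019 and 3531 CPM in the SHNK libraries, 2238, 2144 and 1954 CPM in the stressed saline libraries and 2425, 2285 and 2283 CPM in the non-stressed saline libraries. Every SHNK library was above every library of both saline groups, and SHNK replicate 3 was the highest. Against stressed saline the log2 fold change was 0.52 ± 0.10 (SE), which is 1.44-fold (edgeR adjusted p = 0.0107). Without SHNK replicate 3 it was 0.40 and missed the threshold (edgeR adjusted p = 0.0571).

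Syt1 (chr10:108497650-109010982, minus strand), the calcium sensor of fast synchronous release in forebrain neurons, had 505, 541 and 539 CPM in SHNK, 412, 373 and 383 CPM in stressed saline and 468, 455 and 431 CPM in non-stressed saline libraries. The 3 groups did not overlap, with SHNK highest and stressed saline lowest. Syt1 rose 1.36-fold in SHNK against stressed saline libraries, a log2 fold change of 0.44 ± 0.074 (SE, edgeR adjusted p = 0.0056). It passed the threshold with each of the 9 libraries left out in turn, at 0.41 to 0.48.

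Nsf (chr11:103821782-103954056, minus strand), the ATPase that takes SNARE complexes apart, had 1311, 1312 and 1390 CPM in SHNK, 1120, 1105 and 1025 CPM in stressed saline and 1273, 1104 and 1167 CPM in non-stressed saline libraries. All SHNK libraries were above all saline libraries. The log2 fold change against stressed saline was 0.30 ± 0.076 (SE, edgeR adjusted p = 0.0320). It missed the threshold without any 1 of SHNK replicates 2 and 3 or stressed saline replicates 1 to 3, at edgeR adjusted p = 0.0637 to 0.136.

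Stxbp6 (chr12:44852484-45074709, minus strand) encodes amisyn, which binds syntaxin through a domain like that of Vamp. It had 68.6, 85.8 and 88.6 CPM in SHNK, 62.9, 50.3 and 43.8 CPM in stressed saline and 61.4, 71.2 and 68.8 CPM in non-stressed saline libraries. SHNK libraries were all above stressed saline libraries but overlapped the non-stressed ones. The log2 fold change against stressed saline was 0.63 ± 0.13 (SE, edgeR adjusted p = 0.0142), and it missed the threshold without SHNK replicate 2 (adjusted p = 0.0701), SHNK replicate 3 (0.0885) or stressed saline replicate 2 (0.0618).

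Syt15 (chr14:34219595-34230420, plus strand) encodes a synaptotagmin whose domains lack the usual calcium-binding residues. It was measured at 0.442, 0.259 and 0.217 CPM in SHNK, 3.46, 8.76 and 7.52 CPM in stressed saline and 1.05, 0.720 and 0.932 CPM in non-stressed saline libraries. These are counts of 21, 13 and 8 in SHNK, 163, 409 and 267 in stressed saline and 48, 23 and 38 in non-stressed saline libraries. The 3 groups did not overlap, with stressed saline highest and SHNK lowest. Syt15 was 21.0-fold lower in SHNK than in stressed saline libraries, a log2 fold change of -4.39 ± 0.38 (SE, edgeR adjusted p = 0.000158). It passed the threshold with each of the 9 libraries left out in turn, at -4.76 to -4.13.

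Syt6 (chr3:103575231-103645569, plus strand), a synaptotagmin known in mouse from the sperm acrosome, had 0.799, 0.557 and 0.652 CPM in SHNK, 4.90, 13.6 and 8.48 CPM in stressed saline and 1.21, 0.626 and 2.55 CPM in non-stressed saline libraries. All stressed saline libraries were above all others, and replicate 2 was the highest. Its log2 fold change against stressed saline was -3.75 ± 0.45 (SE, edgeR adjusted p = 0.000646). A gene on the other strand, Atg4a-ps, overlaps 8.7% of its exon length, and whether counting used strand is not given in the sources used here.

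Sytl1 (chr4:133253090-133263113, minus strand), an effector of the small GTPase Rab27 in secretory granule traffic, had 0.820, 0.298 and 0.516 CPM in SHNK, 4.48, 12.3 and 7.63 CPM in stressed saline and 0.811, 1.19 and 3.21 CPM in non-stressed saline libraries. All stressed saline libraries were above all others, and SHNK and non-stressed libraries overlapped. Its log2 fold change against stressed saline was -3.90 ± 0.52 (SE, edgeR adjusted p = 0.00134). Syt6 and Sytl1 both passed the threshold with each of the 9 libraries left out in turn. In Syt15, Syt6 and Sytl1 the stressed saline libraries had the order replicate 2, 3, 1. This was also their order in the summed habenula markers and in Syt9, described below. The part of those markers in these falls was not tested.

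The promoters of these 3 genes are shown because they carry the largest fold changes of the 70 genes, with that of Syt1, which moved the other way, beside them. Each runs from 250 bases before to 50 bases after an annotated start, 5′ to 3′ on the gene's strand, from RefSeq on GRCm38.p6. Capitals mark matches, on either strand, to TGACGTCA (the cyclic AMP response element), CACGTG (an E-box), TAATTA (a homeodomain core), TTCAGCACC (the left part of the REST site) and GGGCGG (a GC box).
Syt15 (chr14:34219796-34220095, plus strand): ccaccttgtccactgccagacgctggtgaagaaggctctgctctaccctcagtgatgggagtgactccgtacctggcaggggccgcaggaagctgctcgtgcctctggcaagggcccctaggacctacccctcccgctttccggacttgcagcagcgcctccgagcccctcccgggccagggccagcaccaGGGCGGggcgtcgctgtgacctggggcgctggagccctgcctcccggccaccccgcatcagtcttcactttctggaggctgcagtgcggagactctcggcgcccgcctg
Syt6 (chr3:103574995-103575294, plus strand): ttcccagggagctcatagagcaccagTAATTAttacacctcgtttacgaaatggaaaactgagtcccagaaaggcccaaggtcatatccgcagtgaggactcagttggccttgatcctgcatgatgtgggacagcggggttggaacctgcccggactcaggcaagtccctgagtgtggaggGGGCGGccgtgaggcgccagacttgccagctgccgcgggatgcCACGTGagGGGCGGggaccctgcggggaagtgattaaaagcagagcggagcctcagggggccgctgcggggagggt
Sytl1 (chr4:133263038-133263337, minus strand): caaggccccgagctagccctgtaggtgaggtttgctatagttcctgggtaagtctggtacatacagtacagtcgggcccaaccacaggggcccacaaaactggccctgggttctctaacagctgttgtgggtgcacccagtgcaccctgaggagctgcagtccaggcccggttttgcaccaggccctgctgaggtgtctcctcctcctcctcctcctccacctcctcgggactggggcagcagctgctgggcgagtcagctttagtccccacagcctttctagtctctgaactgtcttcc
Syt1 (chr10:109010926-109011225, minus strand): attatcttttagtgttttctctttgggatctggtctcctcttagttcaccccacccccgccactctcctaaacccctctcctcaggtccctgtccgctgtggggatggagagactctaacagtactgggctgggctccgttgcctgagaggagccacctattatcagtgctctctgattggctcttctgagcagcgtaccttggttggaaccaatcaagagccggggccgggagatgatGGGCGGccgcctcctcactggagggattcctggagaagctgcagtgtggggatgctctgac

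The Syt15 window held 1 GC box, as did the Syt1 window, which is from 1 of 2 listed starts. The Syt6 window, from 1 of 3 listed starts, held 2 GC boxes, 1 E-box and 1 homeodomain core. None of the 5 motifs was found in the Sytl1 window. RefSeq promoters were matched for 53 of the 70 genes, with 66 starts. GGGCGG was in 65.2% of the 66 promoters, against 35.7% of all 32851 promoters of that length. CACGTG was in 16.7% and 7.15%, TGACGTCA in 4.55% and 1.79%, TAATTA in 1.52% and 5.29%, and TTCAGCACC in 3.03% and 0.371%, for the 66 and for all promoters. The 2 promoters with TTCAGCACC were those of Syn1 and Unc13a, and Syt6 was the 1 gene with TAATTA. These matches are a description of the letters only.

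Syt9 (chr7:107370728-107548656, plus strand), a fast calcium sensor in some neurons, had 45.0, 44.8 and 48.9 CPM in SHNK, 66.2, 142 and 91.8 CPM in stressed saline and 50.8, 38.5 and 69.6 CPM in non-stressed saline libraries. It had the highest level per length of the 6 genes that fell, at 11.6 CPM per kilobase in SHNK libraries. Every SHNK library was below every stressed saline library, while the saline groups overlapped. The log2 fold change was -1.11 ± 0.23 (SE, edgeR adjusted p = 0.0145). It was -0.77 without stressed saline replicate 2 (adjusted p = 0.0565), and it also missed the threshold without SHNK replicate 2 (0.0660) or SHNK replicate 3 (0.0752).

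Unc13d (chr11:116062095-116077961, minus strand) encodes Munc13-4, which prepares granules for release in blood cells. It had 0.841, 1.31 and 0.760 CPM in SHNK, 1.89, 2.40 and 1.55 CPM in stressed saline and 0.833, 0.658 and 0.712 CPM in non-stressed saline libraries. Stressed saline libraries were above all others. The log2 fold change against stressed saline was -0.99 ± 0.28 (SE) at the edge of the threshold (edgeR adjusted p = 0.04997). It missed the threshold with any 1 of the 9 libraries left out, at edgeR adjusted p = 0.0510 to 0.215.

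Sv2c (chr13:95954594-96132577, minus strand), the Sv2 protein typical of the basal ganglia, had 0.946, 0.974 and 1.14 CPM in SHNK, 2.06, 2.12 and 1.58 CPM in stressed saline and 0.921, 1.002 and 1.10 CPM in non-stressed saline libraries. Stressed saline libraries were above all others. The log2 fold change was -0.92 ± 0.24 (SE, edgeR adjusted p = 0.0374), and it missed the threshold without any 1 of the SHNK replicates or of stressed saline replicates 1 and 2, at edgeR adjusted p = 0.0777 to 0.137.

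**Figure D2:**
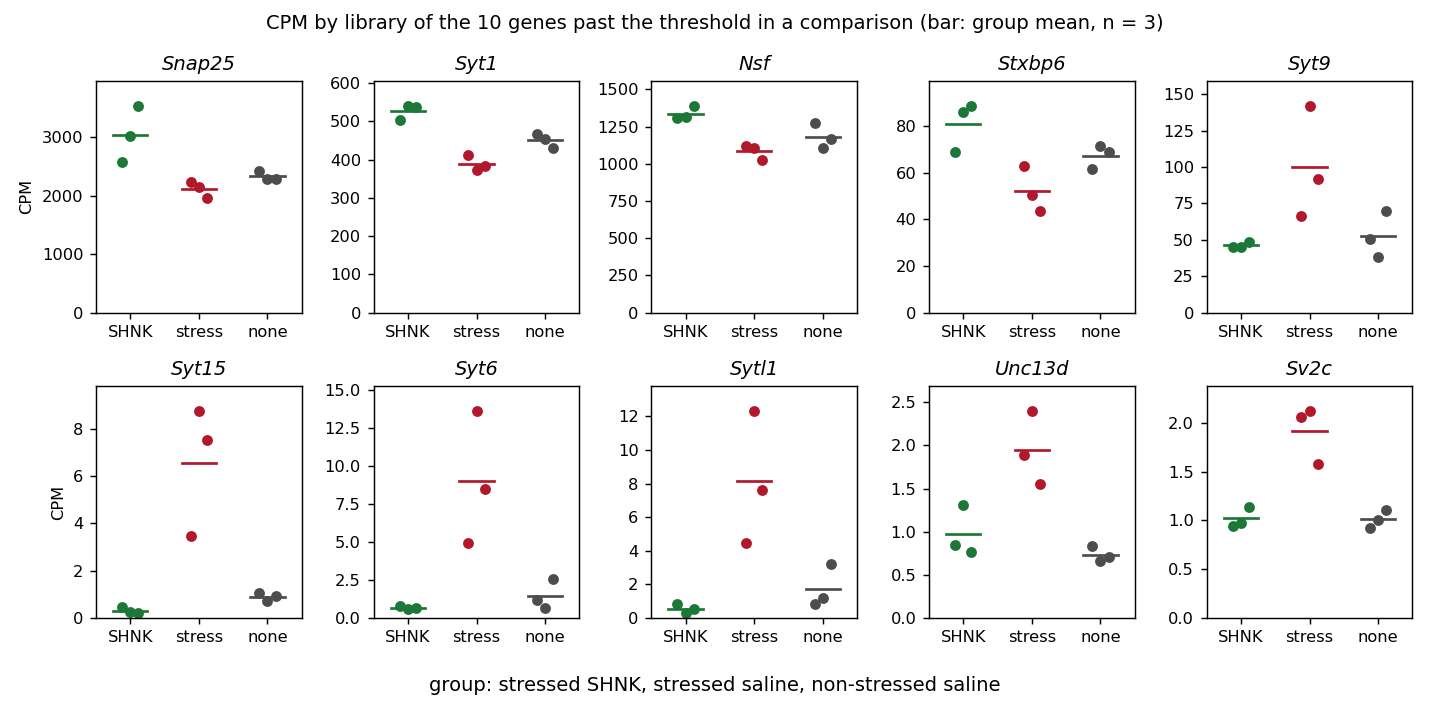
CPM of the 10 genes past the threshold in a comparison, 1 point per library and a bar at the mean of 3, for stressed SHNK (SHNK), stressed saline (stress) and non-stressed saline (none), with axes that start at 0. Snap25, Syt1 and Nsf are highest in SHNK libraries, while Syt15, Syt6, Sytl1, Unc13d and Sv2c have all 3 stressed saline libraries above all others.

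Other core fusion genes did not pass the threshold between SHNK and stressed saline libraries. Stx1a averaged 196 ± 4.11 CPM in SHNK and 193 ± 5.28 CPM in stressed saline libraries (SD, n = 3), a log2 fold change of 0.02 ± 0.078 (SE). Of the vesicle SNAREs, Vamp2 averaged 1296 ± 51.4 CPM in SHNK and 1197 ± 45.8 CPM in stressed saline libraries, a log2 fold change of 0.11 ± 0.073 (SE). Vamp1, which is the main vesicle SNARE of hindbrain and spinal cord, averaged 117 ± 4.69 and 101 ± 10.7 CPM, a log2 fold change of 0.22 ± 0.10. Vamp2 groups did not overlap, but neither gene passed the test (edgeR adjusted p = 0.374 and 0.235). Stx12, a syntaxin of endosomes, came closest among the syntaxins, at 177 ± 6.99 CPM in SHNK and 154.5 ± 10.8 CPM in stressed saline libraries, a log2 fold change of 0.20 ± 0.078 (edgeR adjusted p = 0.148). None of the 14 syntaxins or 7 Vamp genes passed, with log2 fold changes of -0.22 to 0.24 in syntaxins and -0.19 to 0.27 in Vamp genes.

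The adaptors of Nsf, Napa and Napb, averaged 602 ± 31.4 and 466 ± 36.3 CPM in SHNK libraries, against 529 ± 27.8 and 430 ± 46.3 CPM in stressed saline libraries. Their log2 fold changes were 0.19 ± 0.075 and 0.11 ± 0.096 (SE, edgeR adjusted p = 0.154 and 0.524). With Snap25 and Nsf they summed to 4872, 5437 and 6023 CPM in SHNK, 4307, 4233 and 3923 CPM in stressed saline and 4727, 4382 and 4478 CPM in non-stressed saline libraries. Every SHNK library had a higher sum of these 4 genes than any saline library. This also held for Snap25 and Nsf alone, which were called above, but not for Napa or Napb alone.

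Complexins, scaffolds and priming factors gave no call but Unc13d. Cplx1 averaged 496 ± 31.7 CPM in SHNK and 524 ± 81.7 CPM in stressed saline libraries, a log2 fold change of -0.08 ± 0.12 (SE). Cplx2, a complexin of forebrain neurons, had 37.1, 34.5 and 25.9 CPM in SHNK, 40.2, 47.3 and 43.4 CPM in stressed saline and 30.2, 34.5 and 30.99 CPM in non-stressed saline libraries. Its stressed saline libraries were above all others, with a log2 fold change of -0.42 ± 0.12 (SE) that missed the threshold (edgeR adjusted p = 0.0577). It passed with DESeq2 (adjusted p = 0.0187), with limma voom (0.0297) and in edgeR without SHNK replicate 1 (0.0310). Rims1, a scaffold of the active zone, averaged 59.9 ± 4.06 and 53.9 ± 4.23 CPM, a log2 fold change of 0.15 ± 0.097, and Rims2 averaged 153 ± 1.64 and 133 ± 3.90 CPM, a log2 fold change of 0.20 ± 0.076, in SHNK and stressed saline libraries. Unc13a, the main priming factor of excitatory synapses, averaged 34.2 ± 5.58 CPM in SHNK and 40.6 ± 2.69 CPM in stressed saline libraries, a log2 fold change of -0.25 ± 0.11.

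Of the vesicle proteins, Sv2a averaged 292 ± 31.1 CPM in SHNK and 306 ± 19.2 CPM in stressed saline libraries, a log2 fold change of -0.07 ± 0.11 (SE). Sv2b averaged 131 ± 4.43 and 109 ± 8.24 CPM, with groups that did not overlap and a log2 fold change of 0.27 ± 0.092 (edgeR adjusted p = 0.1). Synapsins Syn1 and Syn2 averaged 326 ± 15.7 and 1232 ± 66.6 CPM in SHNK libraries, against 341 ± 19.5 and 1138 ± 110 CPM in stressed saline libraries. Their log2 fold changes were -0.07 ± 0.12 and 0.11 ± 0.087, and that of Syn3, a synapsin at 3.91 ± 0.383 CPM in SHNK and 5.17 ± 0.433 CPM in stressed saline libraries, was -0.40 ± 0.16. A gene on the other strand, Timp3, covers 14.1% of the exon length of Syn3. Sytl2, a Rab27 effector like Sytl1, averaged 25.1 ± 1.36 CPM in SHNK and 30.7 ± 5.79 CPM in stressed saline libraries, a log2 fold change of -0.30 ± 0.12 (edgeR adjusted p = 0.160). Syt2, the fast calcium sensor of the hindbrain, averaged 2.20 ± 0.663 CPM in SHNK and 3.16 ± 1.52 CPM in stressed saline libraries (edgeR adjusted p = 0.572).

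Groups did not overlap in 29 of the 70 genes, 15 with SHNK libraries higher and 14 with them lower, which is 41.4% beside 30.4% of all genes tested. At 100 CPM or more it was 44% beside 44.5% of all genes of that abundance. Between 10 and 100 CPM it was 36.7% beside 34.7%, and under 10 CPM 46.7% beside 23%. Direction went with abundance, as it did over all genes. Of the 25 genes with a mean of at least 100 CPM, 18 had a log2 fold change above 0, with a median of 0.12 (all tested genes of that abundance: 69.2% above 0, median 0.10). Of the 15 genes under 10 CPM, 14 were below 0, with a median of -0.50 (all tested genes under 10 CPM: 59.6% below 0, median -0.10). The 30 genes between those levels had 11 above 0 and a median of -0.08 (all tested genes between those levels: 52% above 0, median 0.01). The levels that split these classes were chosen after the values were seen.

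**Figure D3:**
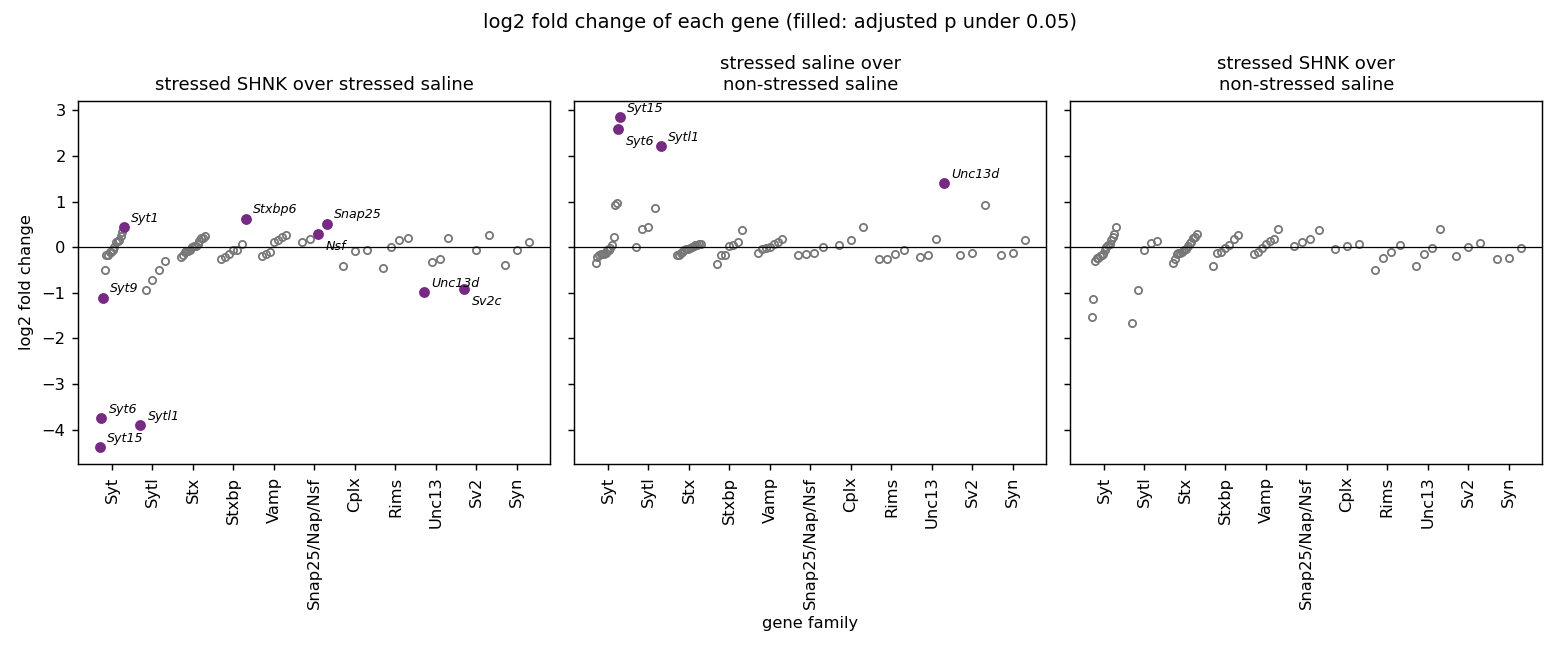
Log2 fold change of each gene by family for SHNK over stressed saline, stressed saline over non-stressed saline and SHNK over non-stressed saline, with filled and named points at an adjusted p under 0.05. Most genes lie within 0.5 of 0, and Syt15, Syt6 and Sytl1 lie far below it in the first panel and above it in the second.

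Markers of some other cells moved in the same comparison, in which 6.41% of all genes tested were called. The 15 pan-neuronal markers summed to 12030 to 13260 CPM in SHNK, 10690 to 11360 CPM in stressed saline and 11820 to 12150 CPM in non-stressed saline libraries. Of them 12 had a log2 fold change above 0 between SHNK and stressed saline, with a median of 0.17. Of the 15, 1 passed the threshold, Stmn2, which is 6.67%. Of 12 astrocyte markers 6 fell, with a summed level of 4021 to 4375 CPM in SHNK, 4505 to 5806 CPM in stressed saline and 5130 to 5392 CPM in non-stressed saline libraries. Of 12 ependymal markers 5 fell, with a summed level of 92.3 to 141 CPM in SHNK, 166 to 254 CPM in stressed saline and 84.0 to 108 CPM in non-stressed saline libraries. Of 10 choroid plexus markers 3 fell, at 68.0 to 106 CPM in SHNK, 80.9 to 126 CPM in stressed saline and 50.8 to 62.7 CPM in non-stressed saline libraries. Of 12 oligodendrocyte, 12 microglial and 5 inhibitory neuron markers tested, 0 were called.

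The part of these shifts in the changes of the 70 genes was not tested as a cause. With the habenula list mean added to the model as a covariate, 0 of the 70 genes and 0 of all genes were called by edgeR, and the log2 fold changes of Snap25, Stxbp6, Syt6, Syt9 and Sytl1 changed sign. The other 5 called genes kept their direction, with log2 fold changes of -0.95 for Sv2c, -1.08 for Unc13d, -1.46 for Syt15, 0.12 for Nsf and 0.01 for Syt1. For stressed against non-stressed saline, Unc13d had 1.45 and Syt15 had 1.05 under that covariate. With the neuron list mean as a covariate, an alternative chosen after seeing the data, 0 of the 70 genes were called. The count over all genes under that covariate is not given here. All 10 genes kept their direction between SHNK and stressed saline. The log2 fold changes were then 0.49 for Snap25, 0.41 for Syt1, 0.43 for Nsf, 0.62 for Stxbp6, -4.15 for Syt15 (edgeR adjusted p = 0.0570), -3.33 for Syt6, -3.42 for Sytl1, -0.84 for Syt9, -0.66 for Sv2c and -0.65 for Unc13d. Both covariates move with the groups, so their effects and that of SHNK cannot be told apart. Of the 7 thalamic markers 2, Lef1 and Rora, were higher at the threshold in SHNK than in stressed saline libraries. Another 2, Calb2 and Drd2, had a log2 fold change below 0, and the summed levels of the 7 overlapped between these groups. Of 5 hippocampal markers 4 were below 0, and 1 was lower at the threshold. Of 11 endothelial markers 1 was lower at the threshold, but 6 were above 0, with a median of 0.005.

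**Figure D4:**
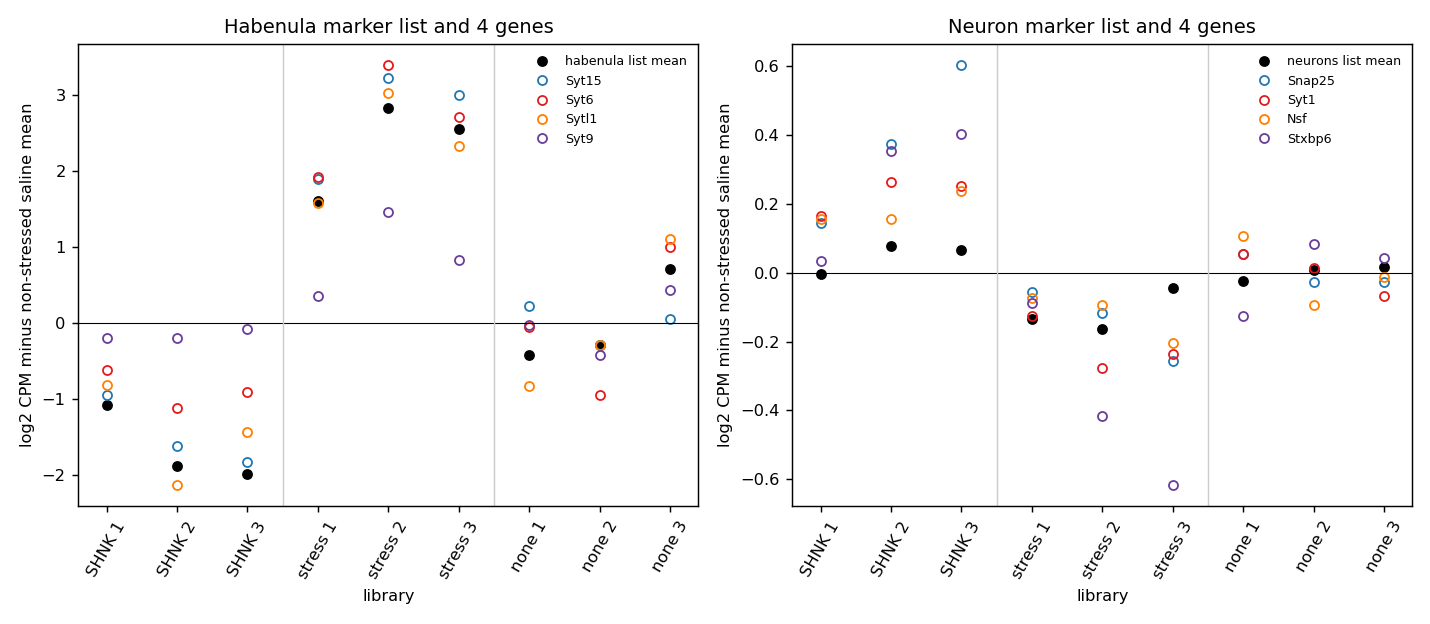
Log2 CPM of each library minus the mean of the non-stressed saline libraries, for the habenula list mean with Syt15, Syt6, Sytl1 and Syt9 (left) and the neuron list mean with Snap25, Syt1, Nsf and Stxbp6 (right), in SHNK, stressed saline (stress) and non-stressed saline (none) libraries. The habenula list mean and the 4 genes drawn beside it lie above 0 in all 3 stressed saline libraries. They lie below 0 in all 3 SHNK libraries. Those 4 genes are not in the list. The neuron list varies far less than Snap25 and Stxbp6.

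The second comparison asked what stress did without the drug. Of the 70 genes 4 were higher and 0 were lower in stressed saline than in non-stressed saline libraries at an adjusted p under 0.05 by edgeR, which is 5.71% beside 1.17% of all genes tested (1.15% higher and 0.0165% lower). The 4 were Syt15, Syt6, Sytl1 and Unc13d. All 4 had a mean under 10 CPM, where 26.7% of the genes were called, beside 1.71% of all genes of that abundance. This comparison shares the stressed saline libraries with the one above, so the values of both are not independent. At an unadjusted p under 0.05, 9 genes were higher and 7 were lower, beside 9.45% of all genes tested in either direction. The lower calls numbered 0 with DESeq2 and with limma voom too.

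Syt15 rose 7.20-fold in stressed saline against non-stressed saline libraries, a log2 fold change of 2.85 ± 0.34 (SE, edgeR adjusted p = 0.0030), and passed with each of the 9 libraries left out in turn. Syt6 rose by 2.60 ± 0.42 on the log2 scale (edgeR adjusted p = 0.0097), and missed the threshold without stressed saline replicate 2 (2.17, adjusted p = 0.0518) or non-stressed saline replicate 1 (2.47, 0.0615). Sytl1 rose by 2.22 ± 0.46 (edgeR adjusted p = 0.0321). Its call was lost without SHNK replicate 3, stressed saline replicate 2 or 3, or non-stressed saline replicate 1 or 2, at adjusted p = 0.0577 to 0.193.

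Unc13d rose by 1.40 ± 0.29 on the log2 scale in stressed saline against non-stressed saline libraries, 2.64-fold (edgeR adjusted p = 0.0311). The call was lost without stressed saline replicate 1 or 2 or any non-stressed saline replicate, at adjusted p = 0.0516 to 0.188. Some markers again moved beside these genes, where 1.15% of all genes tested were called higher. In stressed saline libraries 7 of 9 habenular, 7 of 12 ependymal and 3 of 10 choroid plexus markers were higher at the threshold. Of the 12 astrocyte markers 2 were higher at the threshold, but 8 had a log2 fold change below 0, with a median of -0.07 over the list. Of the pan-neuronal, thalamic, inhibitory neuron, hippocampal, oligodendrocyte, microglial and endothelial markers, 0 were called.

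Genes that fell short of the threshold under stress included Syt9, at 0.92 ± 0.23 on the log2 scale (SE, edgeR adjusted p = 0.0806), Sv2c at 0.93 ± 0.24 (adjusted p = 0.0906) and Cplx2 at 0.45 ± 0.12 (adjusted p = 0.119). DESeq2 called Cplx2 (adjusted p = 0.0268). Stressed saline libraries lay above non-stressed saline libraries, with no overlap, for Sv2c and Cplx2 but not for Syt9. On the other side, Syt7, a sensor of slow asynchronous release, averaged 74.7 ± 5.65 CPM in stressed saline and 94.7 ± 14.6 CPM in non-stressed saline libraries, a log2 fold change of -0.34 ± 0.11 (adjusted p = 0.216). Syt1 had -0.21 ± 0.074 (adjusted p = 0.273) and Stxbp6 had -0.36 ± 0.13 (adjusted p = 0.317). Groups did not overlap for Syt7 or Syt1, with stressed saline lower.

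For the core genes the stress values were small. Snap25 averaged 2112 ± 145 CPM in stressed saline and 2331 ± 81.5 CPM in non-stressed saline libraries (SD, n = 3), a log2 fold change of -0.14 ± 0.10 (SE). Log2 fold changes were -0.12 ± 0.073 for Vamp2, -0.18 ± 0.078 for Stx1a, -0.13 ± 0.076 for Nsf and -0.26 ± 0.097 for Rims1. They were 0.15 ± 0.12 for Cplx1, -0.18 ± 0.11 for Unc13a, -0.17 ± 0.12 for Syn1, -0.13 ± 0.087 for Syn2 and -0.13 ± 0.11 for Sv2a. None of these passed the threshold.

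Of the 25 genes with at least 100 CPM, 20 had a log2 fold change below 0 under stress, with a median of -0.12 (all tested genes of that abundance: 73.3% below 0, median -0.04). Of the 15 genes under 10 CPM, 14 were above 0, with a median of 0.44 (all tested genes under 10 CPM: 54.9% above 0, median 0.04). The 30 genes between those levels had 14 above 0 and a median of -0.03 (all tested genes between those levels: 40.3% above 0, median -0.03). Groups did not overlap in 21 of the 70 genes, 30% beside 12.9% of all genes tested.

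The third comparison set SHNK libraries against those of mice never stressed. By edgeR 0 of the 70 genes passed an adjusted p of 0.05, beside 0.0055% of all genes tested. At an unadjusted p under 0.05, 7 were higher and 10 were lower, beside 18.3% of all genes tested in either direction. DESeq2 called 4 of the 70 genes, Snap25 and Syt1 higher and Syt15 and Unc13a lower, and limma voom called 0. The share of all genes called by DESeq2 is not given here, so its count has no background beside it.

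The smallest edgeR adjusted p, 0.0921, was shared by Snap25 at 0.38 ± 0.10 on the log2 scale (SE), Syt15 at -1.54 ± 0.41 and Unc13a at -0.42 ± 0.11. SHNK libraries lay above the non-stressed ones for Snap25 and below them for Syt15, with no overlap. Unc13a averaged 34.2 ± 5.58 CPM in SHNK and 45.8 ± 1.11 CPM in non-stressed saline libraries, also with no overlap. Syt1 had 0.23 ± 0.074 (edgeR adjusted p = 0.133), and its groups did not overlap either.

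Of the other genes, the smallest p was that of Sytl1 among those lower in SHNK libraries, at -1.67 ± 0.53 on the log2 scale (SE, edgeR adjusted p = 0.128), and that of Vamp7-ps among those higher, at 0.39 ± 0.13 (adjusted p = 0.139), with 13.6 ± 0.935 CPM in SHNK and 10.3 ± 1.48 CPM in non-stressed saline libraries. Sv2c, Cplx2 and Napa were close to 0 in this comparison, at 0.01 ± 0.25, 0.03 ± 0.12 and 0.03 ± 0.075. Unc13d had 0.41 ± 0.30 (adjusted p = 0.509). Among core genes the log2 fold changes were -0.01 ± 0.073 for Vamp2, -0.15 ± 0.078 for Stx1a, 0.07 ± 0.12 for Cplx1, 0.18 ± 0.076 for Nsf, -0.24 ± 0.12 for Syn1 and -0.20 ± 0.11 for Sv2a. Syt12 had -0.30 ± 0.10 (adjusted p = 0.135), with SHNK libraries below the non-stressed ones and no overlap. A gene on the other strand, A930001C03Rik, covers 17.2% of the exon length of Syt12. Groups did not overlap in 18 of the 70 genes, 25.7% beside 21.3% of all genes tested. When all 3 groups were tested together for a difference, 9 of the 70 genes were called, which were the 10 named above without Nsf, beside 4.88% of all genes tested.

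A wider list of 59 presynaptic genes outside the 70 held 56 that were tested. Between SHNK and stressed saline libraries 1 was higher and 4 were lower at an adjusted p under 0.05 by edgeR, which is 8.93% beside 6.41% of all genes tested (2.45% higher and 3.96% lower), with a median log2 fold change of 0.00 over the list. Snap47, a relative of Snap25, averaged 1187 ± 41.9 CPM in SHNK and 991 ± 20.7 CPM in stressed saline libraries, a log2 fold change of 0.26 ± 0.068 (SE, adjusted p = 0.0379).

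Of the 4 that fell, Synpr, the vesicle protein synaptoporin, averaged 57.9 ± 9.98 CPM in SHNK and 184.5 ± 92.3 CPM in stressed saline libraries, at -1.67 ± 0.26 on the log2 scale (edgeR adjusted p = 0.00399). Sncg, gamma-synuclein, averaged 5.57 ± 1.64 CPM in SHNK and 20.1 ± 8.06 CPM in stressed saline libraries, at -1.84 ± 0.30 (adjusted p = 0.00465). Cadps2, a priming factor of dense-core vesicles, averaged 36.4 ± 5.01 CPM in SHNK and 67.3 ± 23.8 CPM in stressed saline libraries, at -0.89 ± 0.20 (adjusted p = 0.0194). The last, Ppfia1, a liprin scaffold of the active zone, was named after its values were seen, and averaged 13.4 ± 0.624 CPM in SHNK and 18.2 ± 1.69 CPM in stressed saline libraries, at -0.43 ± 0.12 (adjusted p = 0.0499).

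Between stressed and non-stressed saline libraries 2 of the 56 were higher and 0 were lower at an adjusted p under 0.05 by edgeR, 3.57% beside 1.17% of all genes tested. Sncg averaged 20.1 ± 8.06 CPM in stressed saline and 5.82 ± 1.54 CPM in non-stressed saline libraries, at 1.80 ± 0.30 on the log2 scale (SE, edgeR adjusted p = 0.0097). Synpr averaged 184.5 ± 92.3 and 73.9 ± 13.3 CPM in the same groups, at 1.32 ± 0.26 (adjusted p = 0.0207). At an unadjusted p under 0.05, 3 of the 56 were higher and 7 were lower, beside 9.45% of all genes tested in either direction. Between SHNK and non-stressed saline libraries 0 of the 56 were called, beside 0.0055% of all genes tested. At an unadjusted p under 0.05, 4 were higher and 8 were lower, beside 18.3% of all genes tested in either direction.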

How the data were processed

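The deposited table holds whole-number read counts per gene symbol, not normalized. The submitters' processing notes name Trimmomatic 0.38, HISAT2, StringTie, GRCm38 and mm10. The roles of these tools, other versions and the use of strand in counting are not stated in the sources used here. Per the labels, 100 ng of total RNA entered each library. The lowest count is 1, so a gene silent in any library is not analysed here.

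Groups came from the labels. Genes were kept with filterByExpr (minimum count 10, minimum total 15), leaving out 762 of 18956 and keeping 18194. All 3 groups entered 1 quasi-likelihood fit with TMM scaling (edgeR 4.0.16, R 4.3.3), with Benjamini-Hochberg adjustment over all tested genes and a threshold of 0.05. The biological coefficient of variation was 0.132. CPM used TMM library sizes, log2 CPM for marker lists a prior count of 2, and levels per length the exon union in GENCODE for GRCm38. Exons of 15 genes overlap another gene, and their reads could not be separated. In 7 of them, Stx18, Stx4a, Syn3, Syt12, Syt4, Syt6 and Syt7, the overlap is over more than 5% of their length.

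Genes given one by one were those past the threshold, Snap25, Syt1 and Syt15, a set of core genes, the 3 with the smallest p short of the threshold in each direction, and each family's highest per length. Core genes short of the threshold are not given in every comparison, and a few core genes are not reported here. The genes and lists were chosen with earlier results of these data known. Alternatives were DESeq2 1.42.0, limma 3.58.1 voom with quality weights, other scalings, filters and thresholds, a replicate block, 2-group fits, the Sytl genes left out, marker covariates and each library left out. The fit was also run on counts simulated from its own means and dispersions. That run cannot show how well the model suits these libraries.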

Additional observations from a re-analysis of the deposited data

How the results depend on the processing

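Counts of the 70 genes called are given against 10 for SHNK against stressed saline, 4 for stressed against non-stressed saline, 0 for SHNK against non-stressed saline and 9 for any difference. With a covariate for the habenula list mean, or for the neuron list mean (an alternative chosen after seeing the data), edgeR called 0 in the first, the second and the last. The fold changes of the 10 genes kept their direction under the neuron covariate, with 0.49 for Snap25 and -4.15 for Syt15 in the first. These covariates move with the groups and cannot be told apart from them. Under the habenula covariate the log2 fold changes of Snap25 (-0.09), Stxbp6 (-0.17), Syt6 (0.56), Syt9 (1.01) and Sytl1 (1.25) changed sign for SHNK against stressed saline, as did Sytl1 (-0.68) for stressed against non-stressed saline, and none passed the threshold. Limma voom called 2 in the second. In the third, DESeq2 called 4 and an adjusted p of 0.1 gave 3. Shares over all genes are not given beside the counts of this section. The causes were not tested.

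With each library left out in turn the counts were 4 to 9, 1 to 4, 0 to 1 and 3 to 12. The first was 5 without SHNK replicate 2, 4 without SHNK replicate 3 and 5 without stressed saline replicate 2, and the last was 4, 3 and 3 without the same libraries. The second was 1 without stressed saline replicate 2 or non-stressed saline replicate 1, and 2 without non-stressed saline replicate 2. The third was 1 without non-stressed saline replicate 2, which was Syn1. The labels do not say whether replicate numbers pair the libraries. With group means taken out, same-numbered libraries had correlations of -0.10 to 0.106, with 1 of 9 over 0.1. These cannot decide the question, as differently numbered libraries were not set beside them. With a replicate block the counts were 7, 4, 0 and 7. Without the Sytl genes they were 9, 3, 0 and 8. Depth limits the least abundant genes, such as Syt15 with counts of 8 to 21 in SHNK libraries.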
